A study of Mus musculus with 12 samples.

Results

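Genes for 9 transcription factors of oral and palatal epithelium were followed in basal cells of the mouse hard palate: Trp63, Sox2, Tfap2a, Tfap2c, Pitx1, Foxe1, Pax9, Dlx3 and Barx2. They were taken by symbol, and all 9 were found among the 23420 genes of the count table. The GFP-HI fraction (6 libraries) and the GFP-LO fraction (6 libraries) came from the same 6 FVB mice, coded B1M, B3M, B4M, B5M, B7F and B7M, each giving 1 library per fraction. All mice were K5-tTA (+/-); tetO-H2B-GFP (+/-), a pair of transgenes that put a green histone (H2B-GFP) under a transactivator made from the keratin 5 promoter, and all had a doxycycline chase of 14 days, during which no new label is made and each division dilutes it. The submitters call GFP-HI cells infrequently dividing and GFP-LO cells frequently dividing, and both were sorted for CD49f, the integrin α6 of basal keratinocytes. Mice were 49 days old in both fractions apart from B7F, which was 71 days old. The label reports only cells in which the keratin 5 promoter was active before the chase, and RNA came from pools of 200 to 1000 sorted cells.

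Stratified epithelia are maintained by a small network of such factors. Trp63 encodes p63, without which mice fail to build a normal stratified epithelium, and the AP-2 factors Tfap2a and Tfap2c act with it in surface ectoderm and keratinocytes. Sox2, Pitx1, Foxe1 and Pax9 are known for the lining of the mouth and foregut, and mice that lack Pax9 or Foxe1 have a cleft palate. Dlx3 is a homeobox gene of keratinocyte differentiation, and Barx2 is a homeobox gene of craniofacial ectoderm and of glands that bud from it.

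Libraries held 6678444 to 10547665 counts, of which the ribosomal precursor Rn45s took 31.5% to 59.8%. Of the GFP-HI libraries, B1M and B3M stood apart with the fewest detected genes, 12312 and 12810, against 15770 to 19023 in the remaining GFP-HI libraries and 13101 to 17376 in GFP-LO. Keratins that define basal keratinocytes were abundant in both fractions. In CPM, which are counts scaled to a common library total with the factors of the fit, Krt14 averaged 10198 ± 2894 in GFP-HI against 10977 ± 1873 in GFP-LO, and Krt5 averaged 5194 ± 698 in GFP-HI against 5827 ± 915 in GFP-LO (SD, n = 6 each). Over all 11719 tested genes, edgeR's quasi-likelihood test with mouse as a block called 62 genes (0.529%), of which 55 were higher in GFP-HI (0.469%) and 7 lower (0.0597%), at an adjusted p (Benjamini-Hochberg) under 0.05.

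All 9 genes passed the filter on low counts, and 0 of 9 were called in either direction, beside the 0.529% called over all tested genes. Their median log2 fold change, GFP-HI over GFP-LO, was −0.01, with 3 positive and 6 negative values, beside a median of −0.02 over all tested genes. At an unadjusted p under 0.05 there were 2 of the 9, Barx2 and Dlx3, against 7.24% of all tested genes, and DESeq2 called 0 of the 7 for which it gave an adjusted p. The 95% intervals from the fit lay within 1.5-fold either way for 5 genes, Trp63, Sox2, Tfap2a, Tfap2c and Pitx1. For these 5 a larger difference between the fractions lay outside the interval, whereas the intervals of Pax9 and Barx2 reached beyond 2-fold.

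**Figure D1:**
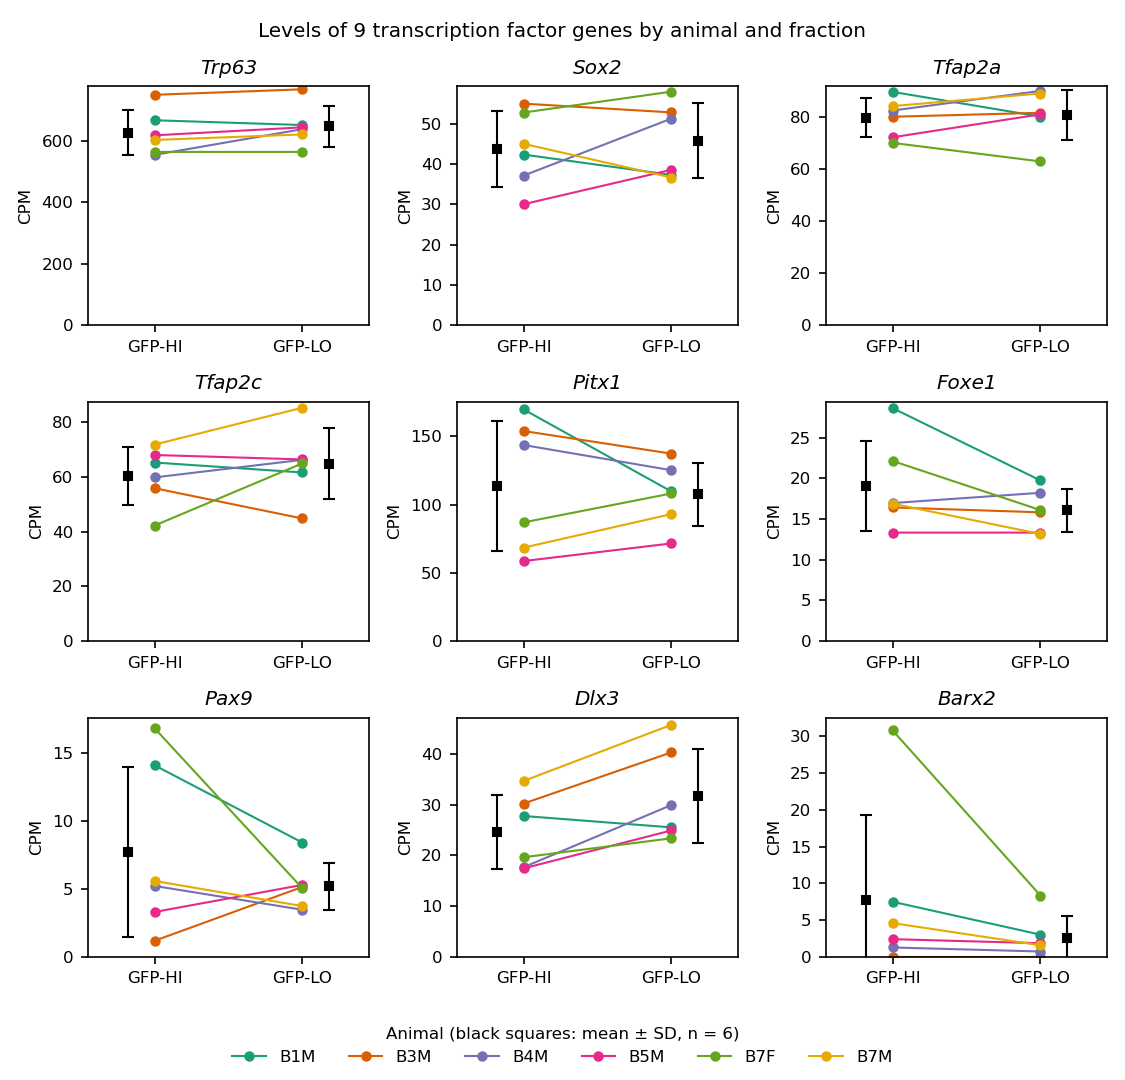
CPM of the 9 genes (vertical axes, each from 0) in GFP-HI (left) and GFP-LO (right), with 1 line per mouse and the mean ± SD of 6 libraries as black squares, cut at 0 for Barx2. Lines are nearly level for Trp63 and Tfap2a, slope both ways for Sox2, Tfap2c, Pitx1 and Pax9, slope up toward GFP-LO in 5 of 6 mice for Dlx3, and slope down toward GFP-LO in 5 mice for Barx2.

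**Figure D2:**
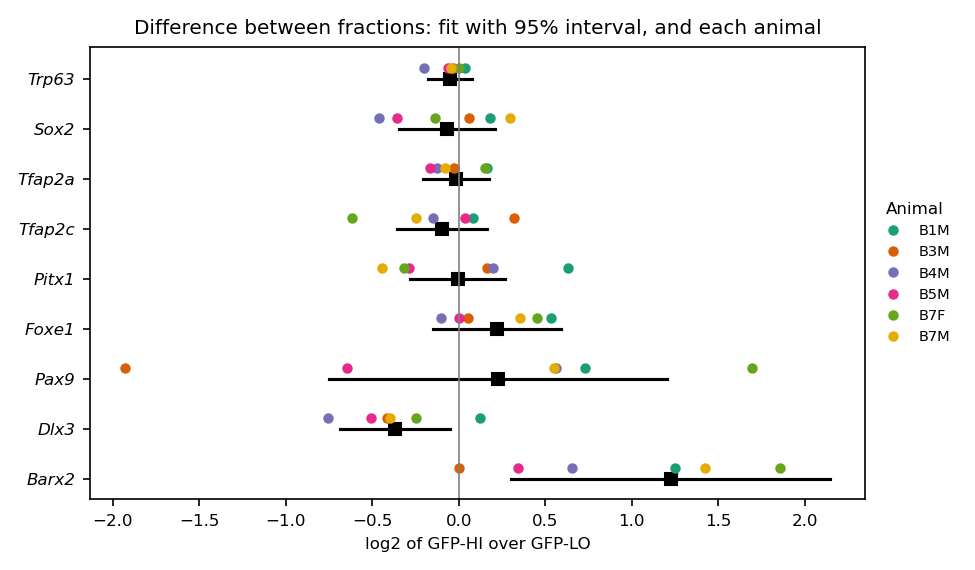
Log2 of GFP-HI over GFP-LO (horizontal axis) for each gene: the black square and bar are edgeR's estimate and 95% interval, and coloured points are single mice from log2 CPM with a prior count of 2. The intervals of Barx2 (0.30 to 2.14) and Dlx3 (−0.69 to −0.05) are the ones that leave out 0, before adjustment over all genes.

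Per kilobase of annotated exon the 9 genes covered a wide range, and their order was nearly the same in both fractions. Trp63 led with 103 ± 12.0 CPM per kb in GFP-HI and 107 ± 11.0 in GFP-LO, and Pitx1 followed with 46.4 ± 19.6 in GFP-HI cells and 43.9 ± 9.51 in GFP-LO (SD, n = 6 each). Trp63 stood above Pitx1 in every library of each fraction with no overlap of their ranges, by 2.23 times in GFP-HI and 2.44 times in GFP-LO. The levels of Tfap2a, Tfap2c, Sox2 and Foxe1 lay close together, at 24.4, 19.7, 17.8 and 17.1 CPM per kb in GFP-HI and 24.7, 21.2, 18.6 and 14.4 in GFP-LO. Neighbours in this middle group overlapped, so the order of one neighbour against the next is not set by these libraries. Its ends stood apart in GFP-LO, where the lowest Tfap2a library (19.3 CPM per kb, B7F) lay above the highest Foxe1 library (17.7 CPM per kb, B1M). Dlx3 followed with 9.43 ± 2.81 in GFP-HI and 12.1 ± 3.55 in GFP-LO, and it overlapped Foxe1 in both fractions. Barx2 and Pax9 were lowest, at 4.33 ± 6.47 and 3.0 ± 2.44 CPM per kb in GFP-HI and 1.44 ± 1.67 and 2.02 ± 0.684 in GFP-LO, and exchanged places within their spread. The median tested gene had 6.37 CPM per kb in GFP-HI and 6.35 in GFP-LO, so 7 of the 9 lay above it in both fractions.

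**Figure D3:**
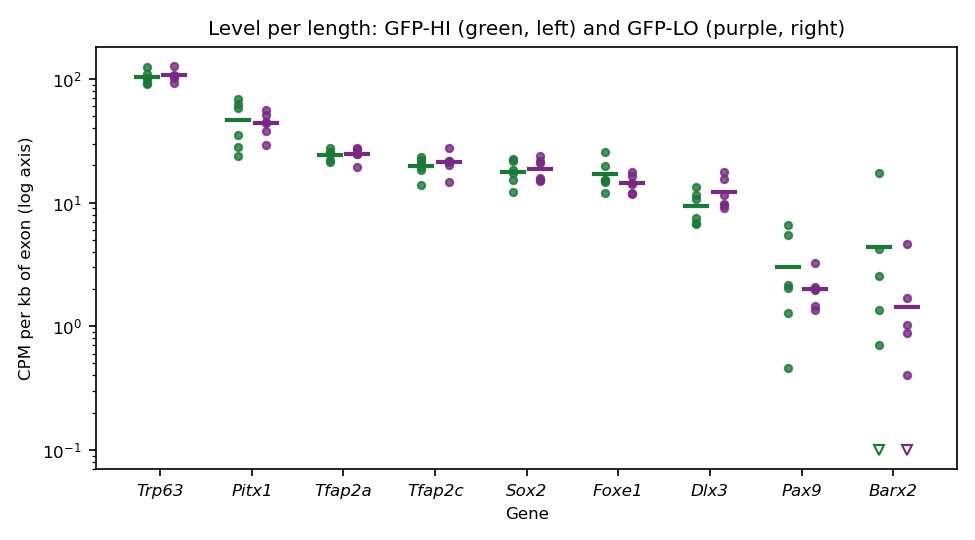
Level per kilobase of exon (log axis) of each gene in the 6 GFP-HI libraries (green, left) and the 6 GFP-LO libraries (purple, right), with bars at the means and open triangles at the axis foot for libraries with 0 counts. Trp63 stands alone at the top, and both Barx2 triangles belong to B3M.

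Trp63 was the most abundant of the set and nearly level between the fractions. The gene lies on chromosome 16 (25683765 to 25892088, plus strand, mm10) and gathered 3922 to 8929 counts per library. It had 554 to 749 CPM in GFP-HI libraries (median 610) and 563 to 767 CPM in GFP-LO libraries (median 640). These ranges overlapped almost fully, and B3M was the highest mouse in both fractions. The log2 fold change was −0.05 ± 0.06 (SE, n = 6 mice), with a 95% interval of 0.883-fold to 1.06-fold (edgeR adjusted p = 0.88). GENCODE M21 gives 4 transcripts from the upstream start, at 25683763, and 4 from the internal start, at 25801916, which lead to the long and the N-terminally truncated p63 proteins. Counts were summed over the gene, so the share of each form was not measured.

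Sox2, an HMG-box factor of oral and foregut epithelium and of sensory and Merkel cell lineages, is a single-exon gene on chromosome 3 (34650005 to 34652460, plus strand). It ranged over 30.04 to 55.01 CPM in GFP-HI (median 43.7) and 36.7 to 58.0 CPM in GFP-LO (median 44.9). It was higher in GFP-HI in B1M, B3M and B7M and lower in B4M, B5M and B7F, so mice disagreed in sign. The fitted difference was −0.07 ± 0.13 (SE, n = 6; interval 0.786-fold to 1.16-fold; edgeR adjusted p = 0.93). The host transcript Sox2ot, whose exons do not overlap the counted exon, had 75 counts over all 12 libraries together, against 263 to 615 for Sox2 in each. Merkel cell markers were low in both fractions, with a sum of 21.7 to 39.2 CPM over 9 genes in GFP-HI and 14.3 to 32.2 CPM in GFP-LO, and their part in the Sox2 level was not tested.

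Of the AP-2 pair, Tfap2a was steadier over mice than Tfap2c. Tfap2a (chromosome 13, 40715675 to 40733823, minus strand) had 70.0 to 89.6 CPM in GFP-HI (median 81.28) and 62.9 to 90.0 CPM in GFP-LO (median 81.31). Its coefficient of variation over mice was 9.32% in GFP-HI and 12.0% in GFP-LO, beside 11.6% in GFP-HI and 10.3% in GFP-LO for Trp63. The log2 fold change was −0.01 ± 0.09 (SE, n = 6; interval 0.867-fold to 1.13-fold; edgeR adjusted p = 0.98). Its level in the GFP-LO library of B7F, 62.9 CPM, lay below the other 5, which ranged from 80.2 to 90.0 CPM. B7F was also the lowest mouse for Tfap2a in GFP-HI, where the other values came nearer, from 72.2 CPM upward.

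Tfap2c (chromosome 2, 172549593 to 172558621, plus strand) had 42.3 to 71.9 CPM in GFP-HI (median 62.6) and 44.8 to 85.4 CPM in GFP-LO (median 65.7). The lowest library differed by fraction, B7F in GFP-HI and B3M in GFP-LO, while B7M was highest in both. Its coefficient of variation over mice was 17.5% in GFP-HI and 19.9% in GFP-LO. Tfap2c was higher in GFP-HI in 3 mice and lower in 3, with single-mouse log2 differences from −0.62 to 0.32. The fitted difference was −0.10 ± 0.12 (SE, n = 6; interval 0.782-fold to 1.12-fold; edgeR adjusted p = 0.89). Across the 12 libraries, with each gene centred on its own mean, the profiles of Trp63 and Tfap2a differed by 0.16 (root mean square, log2 CPM) and those of Tfap2a and Tfap2c by 0.26, the smallest distances among the 36 pairs of the 9 genes. In GENCODE M21, exons of Tfap2a overlap Gm47061 and Gm26688 on the opposite strand and an exon of Pitx1 likewise overlaps Gm47071, genes that the count table does not list, and with the strand setting unknown, their reads cannot be told apart from those of both factors.

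Pitx1, a bicoid-type homeodomain factor that marks the ectoderm of the early mouth, differed more between mice than between fractions. The gene has 3 exons on chromosome 13 (55825054 to 55831425, minus strand). In GFP-HI it had 170, 154 and 144 CPM in B1M, B3M and B4M and 58.6, 86.9 and 68.4 CPM in B5M, B7F and B7M. In GFP-LO the same mice, in that order, had 110, 137, 125, 71.5, 108 and 93.0 CPM. The spread was wider in GFP-HI, with a coefficient of variation of 42.2% against 21.7% in GFP-LO. Pitx1 was higher in GFP-HI in B1M, B3M and B4M and lower in the other 3 mice, with single-mouse log2 differences from −0.44 to 0.63. The fitted difference was −0.01 ± 0.13 (SE, n = 6; interval 0.824-fold to 1.21-fold; edgeR adjusted p = 0.99). The sign of this value changed with the mice included, as did those of Sox2, Pax9, Tfap2a and Tfap2c.

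Foxe1, a forkhead factor of thyroid and oral epithelium with 1 exon on chromosome 4 (46344194 to 46345309, plus strand), had 13.3 to 28.6 CPM in GFP-HI (median 16.9) and 13.1 to 19.7 CPM in GFP-LO (median 15.9). B1M was the highest mouse in both fractions. The gene was higher in GFP-HI in B1M, B3M, B7F and B7M, equal to 3 digits in B5M (13.3 CPM in both) and lower in B4M (16.9 CPM in GFP-HI cells against 18.2 CPM in GFP-LO). The log2 fold change was 0.22 ± 0.17 (SE, n = 6; interval 0.901-fold to 1.51-fold; edgeR adjusted p = 0.82).

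Pax9, a paired-domain factor of pharyngeal endoderm, palate and teeth, was the least reproducible of the genes with counts in every library. It lies on chromosome 12 (56695639 to 56711230, plus strand) and had 9 to 128 counts per library. In GFP-HI it had 16.9 CPM in B7F, 14.1 in B1M, 5.59 in B7M, 5.23 in B4M, 3.30 in B5M and 1.18 in B3M. In GFP-LO it had 5.05, 8.42, 3.74, 3.47, 5.30 and 5.15 CPM in the same mice. The GFP-HI fraction held both the highest and the lowest library, a span of 14.3 times, while in GFP-LO all but B1M lay between 3.47 and 5.30 CPM. Single mice differed by log2 −1.93 (B3M) to 1.69 (B7F), and the fit gave 0.23 ± 0.45 (SE, n = 6; interval 0.594-fold to 2.30-fold; edgeR adjusted p = 0.94). The interval holds both a fall and a rise, so the direction was not settled for Pax9 at this depth and spread.

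Promoter windows, from 250 bases before to 50 bases after a transcript start, were available for 3 of the 9 genes in RefSeq (GRCm38.p6), which are the ones shown. A link between these sequences and the level or spread of the genes was not tested. Of 2 windows listed for Tfap2a, the one nearer to the counted start is printed. Capitals mark the GC box GGGCGG on either strand, a motif bound by Sp and Krüppel-like factors. The windows are chr13:40733746-40734045 (minus strand, start 28 bases from the counted one) for Tfap2a, chr3:34649745-34650044 (plus strand, 10 bases) for Sox2 and chr12:56695221-56695520 (plus strand, 168 bases) for Pax9.
Tfap2a: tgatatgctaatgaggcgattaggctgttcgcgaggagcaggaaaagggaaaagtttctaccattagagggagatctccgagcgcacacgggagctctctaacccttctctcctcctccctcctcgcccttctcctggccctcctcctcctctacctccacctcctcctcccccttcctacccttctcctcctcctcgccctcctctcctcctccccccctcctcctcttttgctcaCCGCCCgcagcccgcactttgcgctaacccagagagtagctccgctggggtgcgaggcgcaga
Sox2: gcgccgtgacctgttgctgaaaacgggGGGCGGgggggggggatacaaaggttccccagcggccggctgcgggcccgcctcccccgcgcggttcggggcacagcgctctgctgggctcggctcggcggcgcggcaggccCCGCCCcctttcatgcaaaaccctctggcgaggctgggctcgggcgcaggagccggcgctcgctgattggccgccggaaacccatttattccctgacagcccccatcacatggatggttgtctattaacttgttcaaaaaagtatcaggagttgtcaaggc
Pax9: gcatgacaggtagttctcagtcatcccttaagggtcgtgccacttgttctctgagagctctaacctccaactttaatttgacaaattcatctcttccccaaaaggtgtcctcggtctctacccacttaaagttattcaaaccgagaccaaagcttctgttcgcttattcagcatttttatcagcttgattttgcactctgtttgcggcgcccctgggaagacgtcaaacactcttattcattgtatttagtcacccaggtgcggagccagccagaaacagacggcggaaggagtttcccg

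The Tfap2a window held 1 GC box and the Sox2 window 2, whereas the letters were not in the Pax9 window, and 35.7% of all 32851 windows of this length held at least 1. Of the printed windows that of Sox2 was the richest in G and C, at 66.3% with 27 CpG dinucleotides, against 61.0% and 15 for Tfap2a and 47.0% and 11 for Pax9. The other Tfap2a window, whose start lies 1097 bases from the counted one, had 46.3%, 11 CpG and 1 GC box. The median window had 52.7% and 7 CpG. The AP-2 motif GCCNNNGGC, which reads the same on both strands, and the letters TATAAA (both strands) were in none of these 3 windows, and were in 16.6% and 13.6% of all windows.

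Dlx3 stood lower in GFP-HI in 5 of 6 mice without passing the test over all genes. The gene has 3 exons on chromosome 11 (95120117 to 95125291, plus strand). GFP-HI libraries had 27.8, 30.2, 17.7, 17.4, 19.6 and 34.7 CPM in B1M, B3M, B4M, B5M, B7F and B7M, and GFP-LO libraries had 25.5, 40.3, 29.9, 24.9, 23.4 and 45.7 CPM. B1M was the exception in sign, and the ranges of the fractions overlapped, with B7M highest in both. The mean was 24.5 ± 7.31 CPM in GFP-HI cells and 31.6 ± 9.25 CPM in GFP-LO (SD, n = 6 each). The log2 fold change was −0.37 ± 0.15 (SE, n = 6; interval 0.622-fold to 0.965-fold; unadjusted p = 0.026, edgeR adjusted p = 0.61). Dlx3 is known to act in suprabasal keratinocytes, whose markers summed to 1666 to 4545 CPM over 13 genes in GFP-HI cells and 1873 to 3260 CPM in GFP-LO. The keratins Krt76 (mean 1151 CPM in GFP-HI, 1240 CPM in GFP-LO) and Krt13 had the highest means of the list. Krt1 (2.29 CPM in GFP-HI, 2.51 CPM in GFP-LO) and Lor (4.61 CPM in GFP-HI, 3.85 CPM in GFP-LO) added little to the sum. Of the 11 markers tested, 6 values were positive and 5 negative, with a median log2 of 0.04. Calml3, a calmodulin-like protein of differentiating epithelium, was called lower in GFP-HI (92.2 ± 20.7 CPM in GFP-HI cells against 129 ± 38.0 CPM in GFP-LO, log2 −0.47, edgeR adjusted p = 0.027), whereas Krt13, a keratin of mucosal epithelium, had log2 0.42 and was not called (670 ± 436 CPM in GFP-HI cells, 458 ± 259 CPM in GFP-LO, edgeR adjusted p = 0.65). The part of these markers in the Dlx3 difference was not tested.

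Barx2 had the widest spread of the set. It lies on chromosome 9 (31846044 to 31913285, minus strand, 4 exons), and in B1M, B3M, B4M, B5M, B7F and B7M, in that order, the GFP-HI libraries held 61, 0, 9, 24, 234 and 46 counts, against 24, 0, 5, 15, 71 and 13 in the GFP-LO libraries. In CPM these were 7.49, 0, 1.27, 2.40, 30.8 and 4.59 in GFP-HI and 3.02, 0, 0.722, 1.85, 8.33 and 1.57 in GFP-LO. Every mouse with a count was higher in GFP-HI, 5 of 5, and the order of mice was B7F, B1M and then the others in each fraction. In B3M a count of 0 allows up to 0.394 CPM in GFP-HI cells and 0.258 CPM in GFP-LO (3 counts, counting error only). The level thus differed between mice by far more than between fractions, and B7F, the one mouse of 71 days, was highest in both, so that age cannot be told apart from that mouse.

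The fitted Barx2 difference was 1.22 ± 0.42 on the log2 scale (SE, n = 6; interval 1.23-fold to 4.42-fold; unadjusted p = 0.013), and it missed the threshold over all genes (edgeR adjusted p = 0.50). Over the alternatives the adjusted p ran from 0.036 to 1.00. The lowest value came without B1M and B3M, a choice made after seeing the data, where Barx2 was called at log2 1.32 over 4 mice. Without B1M alone the adjusted p was 0.33 and without B3M alone 0.37, and neither was a call. Without B7F the log2 fold change was 1.01 (adjusted p = 0.80).

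Markers of other epithelial cells were set beside Barx2, and they followed it only in part. By profile over the 12 libraries the gene nearest to Barx2 was Krt8, a keratin of simple epithelia, ducts, taste cells and Merkel cells, at a root mean square distance of 1.07 (log2 CPM, centred) against a median of 2.00 over 9554 genes. Krt8 had 16.5, 0.131, 3.53, 8.31, 10.4 and 6.99 CPM in GFP-HI of B1M, B3M, B4M, B5M, B7F and B7M and 4.27, 1.12, 2.60, 2.59, 3.99 and 2.77 CPM in GFP-LO. It was higher in GFP-HI in 5 of 6 mice and was not called (log2 0.99, edgeR adjusted p = 0.72). The 7 salivary gland markers summed to 81.8 CPM in B7F and 49.03 CPM in B7M in GFP-HI, against 0.131 to 11.5 CPM in GFP-HI of the remaining 4 mice and 0.628 to 5.67 CPM in GFP-LO. Most of the 2 high sums was the mucin Muc5b alone, at 72.3 CPM in B7F and 43.3 CPM in B7M. In B1M, where Barx2 was second highest at 7.49 CPM in GFP-HI, the salivary sum was 0.368 CPM and Muc5b had 0 counts. In GFP-LO of B7F, where Barx2 was 8.33 CPM, the salivary sum was 2.82 CPM. In bulk libraries fewer cells of a type and less RNA per cell cannot be told apart, and the part of such cells in the Barx2 values was not tested.

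**Figure D4:**
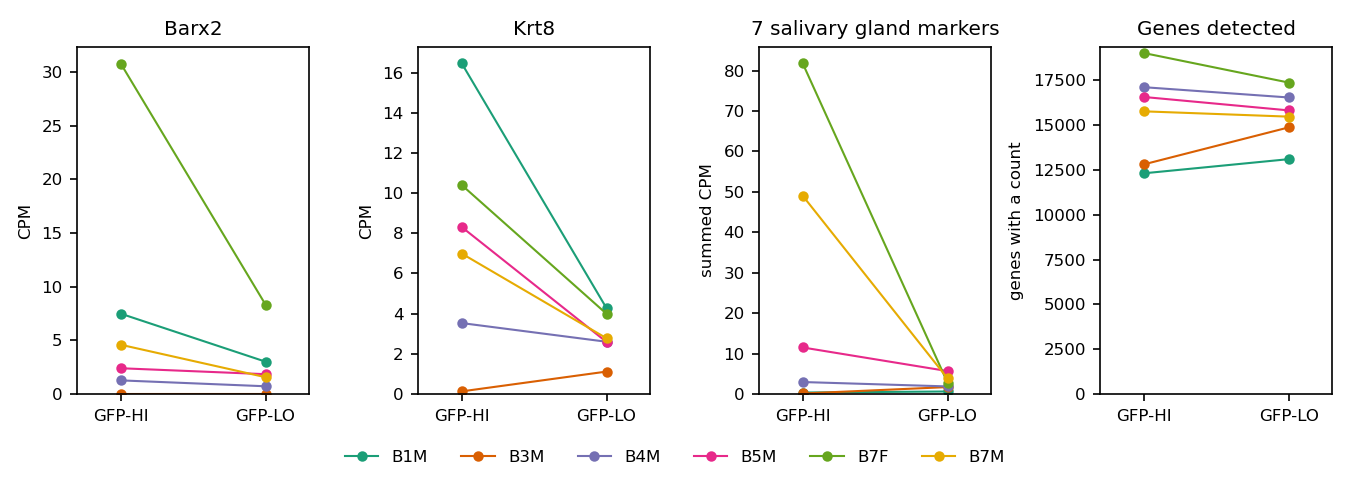
Barx2 and Krt8 (CPM), the summed CPM of 7 salivary gland markers, and the number of genes with a count (vertical axes from 0) in GFP-HI (left) and GFP-LO (right), 1 line per mouse. B7F is highest in GFP-HI for Barx2 (30.8 CPM), the salivary sum (81.8 CPM) and genes detected (19023), whereas B1M is highest for Krt8 (16.5 CPM) with 0.368 CPM in the salivary sum.

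Relatives of the 9 genes from the same families were measured too. Of 24 listed, all were in the table, 13 passed the filter and 0 were called by edgeR or DESeq2 (1 at an unadjusted edgeR p under 0.05), with 7 positive and 6 negative values and a median log2 fold change of 0.01. Among the best expressed per kilobase were Trp53, the tumour suppressor and founder of the p53 family (51.3 ± 9.45 CPM in GFP-HI, 49.6 ± 10.1 CPM in GFP-LO) and Dlx5, a distal-less homeobox gene (26.4 ± 14.5 CPM in GFP-HI, 20.8 ± 3.06 CPM in GFP-LO; SD, n = 6 each). Those with the smallest p were Sox7 (log2 0.45), Sox21 (0.21), Tfap2b (−0.17) and Dlx2 (−0.64), with edgeR adjusted p = 0.68, 0.72, 0.79 and 0.82. Tfap2b, a further AP-2 gene, had 67.7 ± 31.0 CPM in GFP-HI cells and 72.8 ± 21.1 CPM in GFP-LO, a wider spread than that of Tfap2a. The AP-2 gene Tfap2e was lower, at 7.61 CPM in GFP-HI cells and 7.82 CPM in GFP-LO.

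Genes commonly given as targets of p63 were examined beside Trp63. Of 22 listed, 21 were tested and 0 were called by edgeR, whereas DESeq2 called 1, Fras1. The median was −0.08, with 6 positive and 15 negative values, beside 46.9% positive over all tested genes, and 3 had an unadjusted p under 0.05, all lower in GFP-HI, beside the 7.24% of all tested genes. They were Fras1, a basement membrane protein (39.5 ± 22.1 CPM in GFP-HI, 63.2 ± 22.2 CPM in GFP-LO, log2 −0.77, edgeR adjusted p = 0.11, lower in 6 of 6 mice), Krt5 (log2 −0.16, adjusted p = 0.42) and the Notch ligand Jag1 (log2 −0.19, adjusted p = 0.66). Over all tested genes 2.6% were lower in GFP-HI in all 6 mice. Krt14 and Perp, a desmosome-associated membrane protein, had log2 −0.14 and −0.08 (adjusted p = 0.76 and 0.82).

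Other factors of stratified epithelium gave no call either. Of 30 listed, 29 were tested, 0 were called by edgeR or DESeq2 and 0 had an unadjusted edgeR p under 0.05, with a median of −0.02. Id1, Hes1 and Nfix had the highest levels per kilobase, with log2 fold changes of −0.20, −0.01 and 0.01. Ovol1, a repressor that promotes keratinocyte differentiation, was lower in GFP-HI in 6 of 6 mice, as were 2.6% of all tested genes (50.8 ± 17.5 CPM in GFP-HI, 59.7 ± 20.3 CPM in GFP-LO, log2 −0.22, edgeR adjusted p = 0.69). Cebpb, Vdr and Hopx had log2 0.34, 0.21 and −0.49 (adjusted p = 0.74 for each).

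Factors that mark position along the body were looked up as well. Of 19 further factors of oral and craniofacial epithelium 8 were tested and 0 called by edgeR or DESeq2 (0 at an unadjusted edgeR p under 0.05), among them Eya1 (80.4 ± 14.1 CPM in GFP-HI, 81.7 ± 17.4 CPM in GFP-LO), Meis2 (80.9 ± 7.30 CPM in GFP-HI, 77.3 ± 8.46 CPM in GFP-LO) and Meis1 (49.8 ± 9.38 CPM in GFP-HI, 51.1 ± 8.45 CPM in GFP-LO; SD, n = 6 each). Of 39 Hox genes, the position genes of the trunk and neck, 0 passed the filter on low counts, no library had more than 11 counts of any of them, and their sum was 0.656 to 10.3 CPM in GFP-HI cells and 0.628 to 4.81 CPM in GFP-LO. Of 16 factors of palatal mesenchyme 4 were tested and 0 called by edgeR or DESeq2 (0 at an unadjusted edgeR p under 0.05), with a sum of 23.8 to 34.0 CPM in GFP-HI cells and 25.0 to 36.1 CPM in GFP-LO. Msx2 had the highest level per kilobase of these, at 9.03 ± 5.15 CPM in GFP-HI cells and 13.9 ± 3.54 CPM in GFP-LO (log2 −0.91, edgeR adjusted p = 0.76). It was lower in GFP-HI in 6 of 6 mice, as were 2.6% of all tested genes. In B1M, whose GFP-HI library had the fewest detected genes, Msx2 had 0 counts in GFP-HI against 76 in GFP-LO. Of the 4 tested factors of palatal mesenchyme, 3 values were negative and 1 positive, that of Runx2. Runx2 had 10.4 ± 4.31 CPM in GFP-HI cells and 7.74 ± 2.18 CPM in GFP-LO (log2 0.38, edgeR adjusted p = 0.80), and was higher in GFP-HI in 5 of 6 mice. Of 8 fibroblast markers 4 were tested, with 3 positive values and 1 negative, that of Dcn. Dcn was called lower in GFP-HI, at 327 ± 83.9 CPM in GFP-HI cells and 456 ± 92.2 CPM in GFP-LO (log2 −0.49, edgeR adjusted p = 0.0031). Col1a1, at 2.88 ± 1.84 CPM in GFP-HI cells and 0.878 ± 0.714 CPM in GFP-LO, had log2 1.55 and was not called (edgeR adjusted p = 0.69). Col3a1, Pdgfra, Lum and Dpt did not pass the filter on low counts, so Dcn does not speak for the list.

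The profiles most like each factor over the 12 libraries, by root mean square distance of centred log2 CPM among 9554 genes of at least 5 CPM, are given here for each gene in turn. For Trp63 they were Tns4 and Kpna6 (0.09 for both), for Tfap2a Sh3pxd2a and Kif1c (0.08 for both), for Tfap2c Baz2b and Cobll1 (0.14 and 0.15), and for Foxe1 Gatc and Car13 (0.12 and 0.13). For Sox2 they were 2310030G06Rik and Dctn4 (0.14 and 0.16), for Pitx1 Mtif3 and S100a16 (0.16 and 0.19), for Dlx3 Lrrc8d and Rin1 (0.21 and 0.22), for Pax9 Wdr8 and Fmo5 (0.40 and 0.43), and for Barx2 Krt8 and Camk4 (1.07 and 1.12). None of these genes was called, and the libraries share mice in pairs, so the distances describe these 12 libraries.

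**Figure D5:**
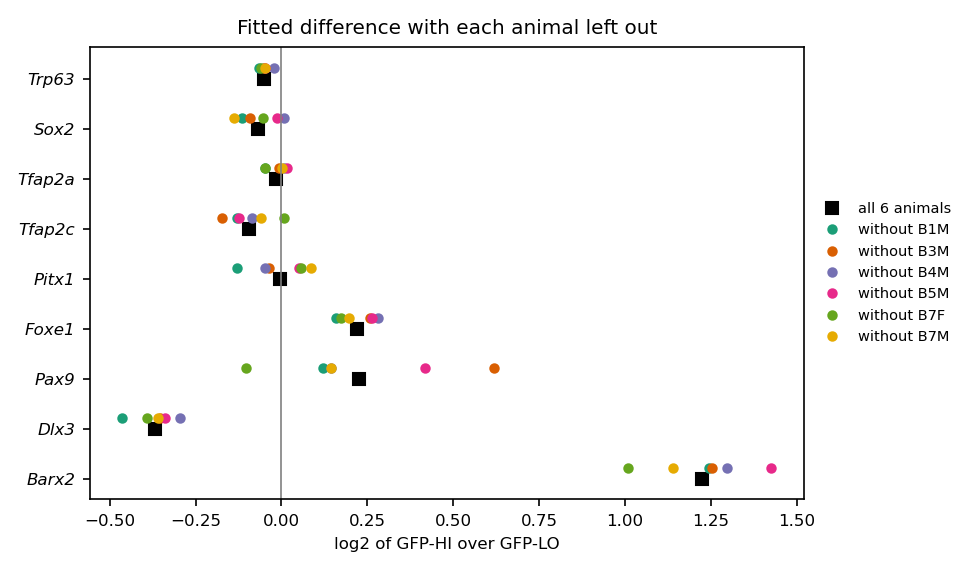
Fitted log2 of GFP-HI over GFP-LO (horizontal axis) with all 6 mice (black squares) and with both libraries of 1 mouse left out (coloured points). Trp63, Foxe1, Dlx3 and Barx2 keep their sign with each mouse left out, Barx2 between 1.01 and 1.43 and Dlx3 between −0.46 and −0.30, while Pax9 runs from −0.10 to 0.62.

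The spread between mice was large in several genes. The standard deviation of the mean log2 level between mice was 0.15 for Trp63 and Tfap2a, 0.24 for Tfap2c, 0.27 for Sox2, 0.29 for Foxe1, 0.39 for Dlx3, 0.48 for Pitx1, 0.76 for Pax9 and 2.05 for Barx2, beside a median of 0.33 over all tested genes. The standard deviation of the single-mouse log2 difference between fractions was 0.08 for Trp63 and 0.14 for Tfap2a, and 1.26 for Pax9 and 0.71 for Barx2, beside a median of 0.48 over all tested genes. Pax9 and Barx2 were also the 2 genes with the fewest counts.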

How the data were processed

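Total RNA of sorted palatal basal cells was sequenced, 12 libraries from 6 mice. The deposited table gives whole-number read counts per gene over annotated exons, not normalised, with exon coordinates, strand and exonic length per the file headers. Per the submitters' processing notes the builds were mm10 and GRCm38 and the tools included featureCounts, bcl2fastq 2.20.0 and R 3.4.1. Not given in the sources used here: aligner, annotation release, strand setting, treatment of multiply mapped reads.

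The test was run with edgeR 4.0.16 (R 4.3.3) after filterByExpr by group, at a minimum count of 10 and total of 15, with TMM scaling factors. The quasi-likelihood test with robust estimation was two-sided across all 11719 genes kept, with Benjamini-Hochberg adjustment. Mouse was a block: the series text calls the samples matched, the titles share a mouse code, and deviations from group means correlated at 0.23 to 0.49 within a mouse, above those with any other mouse. SE and intervals come from the fit. The fit was also run on simulated counts that held no mouse effect, so that run does not bear on the block. CPM use effective library sizes that include Rn45s. Limits for counts of 0 cover counting error only, because PCR copies were not marked by molecular identifiers.

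The 9 genes and the other lists were chosen with earlier results of these data known. Named list genes are up to 4 with the smallest p, up to 3 with the highest level per kilobase, and every called one; one gene so chosen is not reported here. Of the listed symbols, Nectin1 was matched as Pvrl1, and Flg and Trdc were not matched. Alternatives were no block, DESeq2 1.42.0, RLE scaling, other count filters, Rn45s left out, and mice left out. Cell types other than by their markers, and isoforms, were not analysed here.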

Additional observations from a re-analysis of the deposited data

Results flagged for a closer look

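Of 27 sets of 6 values examined (levels in each fraction and single-mouse differences for 9 genes), 4 were flagged. A flagged set held a library whose gap to its nearest neighbour was a large share of the whole range. A chance rate of about 1 in 20 assumes independent sets of normal values. These sets share libraries and CPM need not be normal, so the number flagged is not weighed against that rate. Barx2 had a flagged library in GFP-HI (gap 0.757 of the range) and in GFP-LO (0.638), both through B7F. Pax9 had one in GFP-LO (0.629) through B1M at 8.42 CPM. Tfap2a had one in GFP-LO (0.636) through B7F at 62.9 CPM, the lowest library. B7F is the one mouse of 71 days, and its GFP-HI library detected the most genes, 19023; their part in these values was not tested.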

How the results depend on the processing

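No gene of the 9 was called with another test, scaling, filter or block, or with any single mouse left out, where it was tested. Without B1M and B3M, chosen after seeing the data, 1 of 9 was called, Barx2 (log2 1.32, adjusted p = 0.036). DESeq2 gave no adjusted p for 2 of the 9, and Barx2 was not tested at a minimum count of 30. The paired design mattered for the whole table: without the replicate block edgeR called 0 genes higher and 0 lower (440 at an unadjusted p under 0.05), against 55 and 7 with it. Other counts of genes higher and lower were 120 and 23 with DESeq2, 127 and 45 without a low-count filter, and 117 and 34 without B1M and B3M. With single mice left out they ran from 29 (without B3M) to 81 (without B1M) higher and from 2 (without B4M) to 14 (without B1M) lower. The causes were not tested.

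Small values changed sign. Pitx1 was 0.078 without the replicate block, 0.0019 with DESeq2 and 0.0028 with RLE scaling, and ran from −0.13 to 0.086 with single mice left out. Also crossing 0 with single mice left out were Sox2 (−0.14 to 0.0074), Tfap2a (−0.048 to 0.016), Tfap2c (−0.17 to 0.0078) and Pax9 (−0.10 to 0.62). Trp63, Foxe1, Dlx3 and Barx2 kept their sign in every alternative run. Without Rn45s in the totals, the mean CPM of the 9 genes in each fraction were 1.73 to 1.74 times as large, and without scaling factors 0.988 to 1.11 times. Depth limits Barx2 and Pax9, with 0 to 234 and 9 to 128 counts per library.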
